A study of Homo sapiens with 9 samples.

Results

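Recipient MDA-MB-231 cells that had received vesicles from nocodazole-treated donor cells (TIS sEV) were compared with recipient cells that had received vesicles from vehicle-treated donor cells (Cont sEV). The comparison takes 6 of the 9 libraries of the series, 3 against 3, and 13879 of the 60719 genes in the expression table, those that reached 1 TPM, a relative transcript abundance corrected for length, in 3 or more of the 9 libraries. Donor and recipient were the same established line, MDA-MB-231, a human breast cancer line of mesenchymal type that lacks hormone receptors, described in the labels as wild type. Donor cells were given DMSO, or nocodazole at 100 ng/ml, for 72 h, and then spent a further 72 h in medium depleted of exosomes, from which the small extracellular vesicles (sEVs) were collected by differential centrifugation. Recipient cells were cultured for 72 h with Cont sEV, with TIS sEV or, in the No sEV group, without vesicles, all in 5% exosome-free medium. The labels give 1 particle dose and 1 time, no marker of senescence in the donors, and no statement that replicates were separate cultures, so the p-values below describe the spread between these libraries, which may be technical. Drug carried over with the vesicles and other consequences of nocodazole in the donors cannot be told apart from donor senescence in this design.

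Small extracellular vesicles are membrane-bound particles, exosomes among them, that cells release and that can carry proteins and RNA to other cells. Nocodazole stops microtubules from assembling and holds cells in mitosis, and cells that slip out of such an arrest can enter therapy-induced senescence (TIS), a lasting exit from the cell cycle. Senescent cells are known for a secretome of interleukins, chemokines, growth factors and proteases, and their vesicles are studied as a further route by which they act on neighbouring tumour cells.

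The recipient libraries resembled each other closely. Within groups Pearson's r over genes ranged from 0.991 to 0.993, and between TIS sEV and Cont sEV libraries from 0.992 to 0.993, no pair was identical, and TIS sEV replicate 2 on the first principal component and TIS sEV replicate 3 on the second lay farthest out. Since TPM values carry no read depth, that depth is unknown. Of the markers of the line, VIM had 2206 to 2239.6 TPM in Cont sEV libraries and 2267 to 2299 in TIS sEV libraries, while of the hormone receptor and luminal markers ESR1, PGR, FOXA1 and CDH1 were below 1 TPM in all 9. The luminal markers GATA3 (3.24 to 3.79 TPM with Cont sEV, 3.01 to 4.54 with TIS sEV) and ERBB3 (4.397 to 4.62 and 4.04 to 4.38) were present at a low level. Among leukocyte markers CD3E and ITGAM were below 1 TPM. PTPRC, the general leukocyte marker CD45, had 0.197, 0.125 and 0.156 TPM with Cont sEV, 1.101, 0.664 and 0.241 with TIS sEV and 1.41, 0.429 and 0.278 with No sEV, low but higher in each TIS sEV than in any Cont sEV library, and its part in the results was not tested. CD68, a leukocyte marker that tumour lines also express, had a substantial level (146 to 159.7 TPM with Cont sEV, 151 to 160.5 with TIS sEV).

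A small set of transcripts passed the test between the groups, described below. The secreted cystatin genes CST1 and CST4, the trypsinogen gene PRSS2 and the macrophage growth factor gene CSF1 were lower with TIS sEV. The tissue factor gene F3, the BMP antagonist gene NOG, the stretch-responsive gene ANKRD1 and the keratin-associated protein gene KRTAP2-3 were higher. By limma, fitted to all 9 libraries, 13 genes passed at a Benjamini-Hochberg adjusted p under 0.05, or 0.0937% of those tested. Of these, 6 were higher (0.0432%) and 7 lower (0.0504%). All 13 were protein-coding, and the mean of 12 reached 50 TPM. At an unadjusted p under 0.05 there were 1388 genes (10.0%), 981 higher (7.07%) and 407 lower (2.93%), and the 3 TIS sEV values lay entirely to 1 side of the 3 Cont sEV values for 2133 genes (15.4%). A higher mean with TIS sEV was found for 59.6% of genes, with a median log2 fold change of 0.02 on log2(TPM + 1), the scale of all fold changes here, which understates changes of low genes. Counts of higher and lower means in the gene lists below are to be read against these 59.6%. Which genes passed depended on single libraries. Leaving out TIS sEV replicate 1 or Cont sEV replicate 2 left 2 calls, leaving out Cont sEV replicate 3 or No sEV replicate 3 (which helps to estimate the spread) left 3, and without TIS sEV replicate 2, TIS sEV replicate 3 or No sEV replicate 1 there were 4, 7 and 8. CST1 and PRSS2 passed in each of these fits. When the 6 libraries compared were fitted alone, CST1, PRSS2 and CST4 passed, all lower, and none of the 6 higher genes did.

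**Figure D1:**
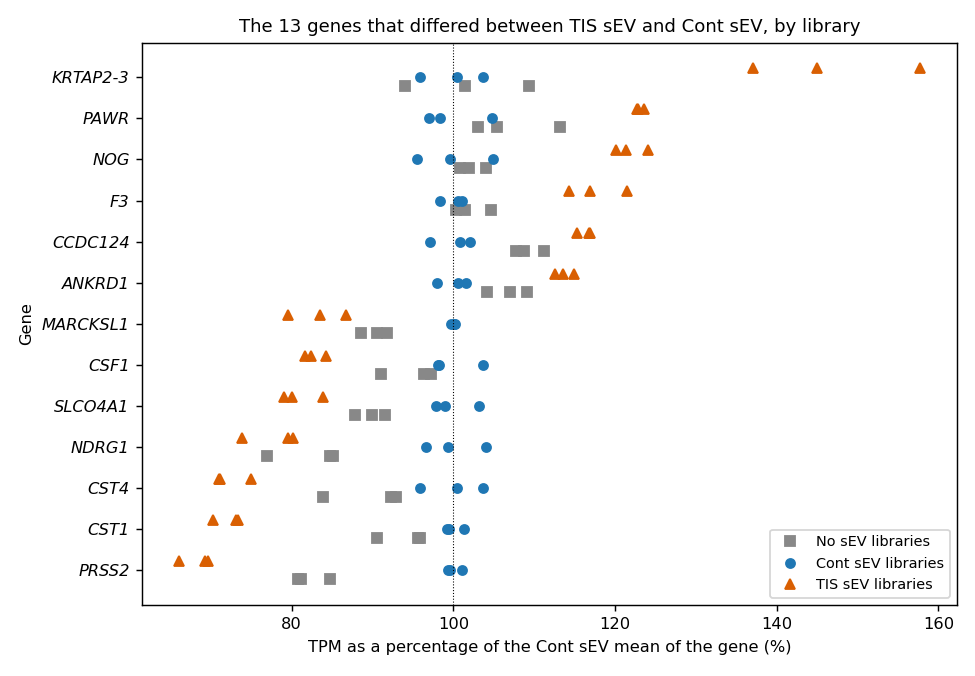
Level of each of the 13 genes that passed, by library, as a percentage of the gene's Cont sEV mean. Triangles are the 3 TIS sEV libraries, circles the 3 Cont sEV libraries and squares the 3 No sEV libraries; KRTAP2-3 shows the largest relative rise and PRSS2 the largest relative fall.

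Of the 13 genes CST1, a type 2 cystatin, had the largest difference in TPM. Cystatins are small inhibitors of papain-like cysteine proteases such as the lysosomal cathepsins; CST1, CST4 and CST2 encode secreted forms best known from saliva. CST1 (ENSG00000170373.8, chromosome 20, 23747553 to 23751268, minus strand, on GRCh38) had 1140.3, 1136 and 1161 TPM in the Cont sEV libraries and 838, 805 and 841 TPM in the TIS sEV libraries. The No sEV libraries had 1098, 1037 and 1096 TPM, so every TIS sEV library was below all 6 others. For CST1 this was a log2 fold change of -0.47 (SE 0.03, 95% interval -0.53 to -0.40, adjusted p = 0.000179). CST4 (ENSG00000101441.4, chromosome 20, 23685640 to 23689040, minus strand) had 301, 310.3 and 287 TPM with Cont sEV and 213, 213 and 224 TPM with TIS sEV, a log2 fold change of -0.46 (SE 0.04, adjusted p = 0.00577). Its No sEV libraries, at 276, 251.1 and 278 TPM, lay between the other groups without overlapping them. CST4 did not pass without Cont sEV replicate 2 or without TIS sEV replicate 1.

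CST2 did not pass (adjusted p = 0.0737; it passed in 3 alternatives, in which TPM were rescaled by median ratios, quantile-normalized or freed of GC and length trends), with 28.1, 25.7 and 28.2 TPM in Cont sEV libraries against 22.5, 20.5 and 21.1 in TIS sEV libraries. These 3 genes lie near each other on chromosome 20 and are close relatives, so reads could be assigned to the wrong one. The sum of the 3 genes is less affected by how reads were divided among them. It was 1469, 1472 and 1476 TPM in the Cont sEV libraries and 1073, 1038 and 1086 TPM in the TIS sEV libraries, a mean lower by 406 TPM. No library of one group reached the other (two-sided exact permutation p = 0.1, the smallest that 3 against 3 allows). CST1, which was picked for passing in this same contrast, made up most of the sum, so nothing further is read from this separation.

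The other cystatin genes did not pass. Of the 12 cystatin genes looked up, 6 passed the level filter, and of these 1 had a higher and 5 a lower mean with TIS sEV, with -0.24 as the median log2 fold change where that of all genes was 0.02. CST3, the widely expressed cystatin C gene, had 492, 504 and 499 TPM with Cont sEV and 472, 429 and 447 with TIS sEV (adjusted p = 0.238). CSTB, which encodes an intracellular inhibitor, had overlapping values of 369 to 383 and 365 to 378 TPM. Their protease targets were measured as well. Of 13 lysosomal cathepsin genes 0 passed in limma, and 5 had a higher and 8 a lower mean. An unadjusted p under 0.05 was found for 2 of them, against 10.0% of all tested genes. The smallest p belonged to CTSZ, at 297 to 305 TPM with Cont sEV and 310.2 to 315 with TIS sEV (adjusted p = 0.455). The median of the cathepsin list was -0.01 and turned positive without TIS sEV replicate 2, alone or together with Cont sEV replicate 2.

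PRSS2 encodes a trypsinogen, the precursor of a serine protease that cuts after basic residues and can activate the receptor encoded by F2RL1. PRSS2 (ENSG00000275896.6, chromosome 7, 142760398 to 142774564, plus strand) had 74.9, 75.99 and 74.8 TPM with Cont sEV and 52.1, 49.7 and 52.4 TPM with TIS sEV. With No sEV it had 60.8, 61.003 and 63.7 TPM, so the Cont sEV libraries were above and the TIS sEV libraries below the cells without vesicles. The log2 fold change of PRSS2 between TIS sEV and Cont sEV was -0.54 (SE 0.03, 95% interval -0.62 to -0.46, adjusted p = 0.000179), the largest among genes that passed. Against No sEV, PRSS2 had 0.28 in Cont sEV (adjusted p = 0.0791) and -0.26 in TIS sEV (adjusted p = 0.13), neither of which passed; both share the No sEV libraries.

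Relatives of PRSS2 did not pass. PRSS1 was listed at 0 in all 6 libraries compared, and PRSS3, the mesotrypsinogen gene, had overlapping values of 70.2 to 73.3 TPM with Cont sEV and 66.3 to 71.1 with TIS sEV. Summed over the 3 trypsinogen genes the level was 145, 149 and 146 TPM with Cont sEV against 123, 116 and 119 TPM with TIS sEV. It was lower in each TIS sEV library than in any Cont sEV library (two-sided exact permutation p = 0.1, which cannot be smaller here). PRSS2, picked from these same data, is part of this sum, so the separation adds no support of its own. PRSS23, a more distant serine protease gene, had 224 to 229 and 245 to 252 TPM (adjusted p = 0.158). F2RL1 had 188 to 198 and 189 to 199.8 TPM. In the list of trypsinogens, kallikreins and their receptor and inhibitors, 8 of 16 genes passed the filter, 3 with a higher and 5 with a lower mean, and PRSS2 alone passed the test.

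**Figure D2:**
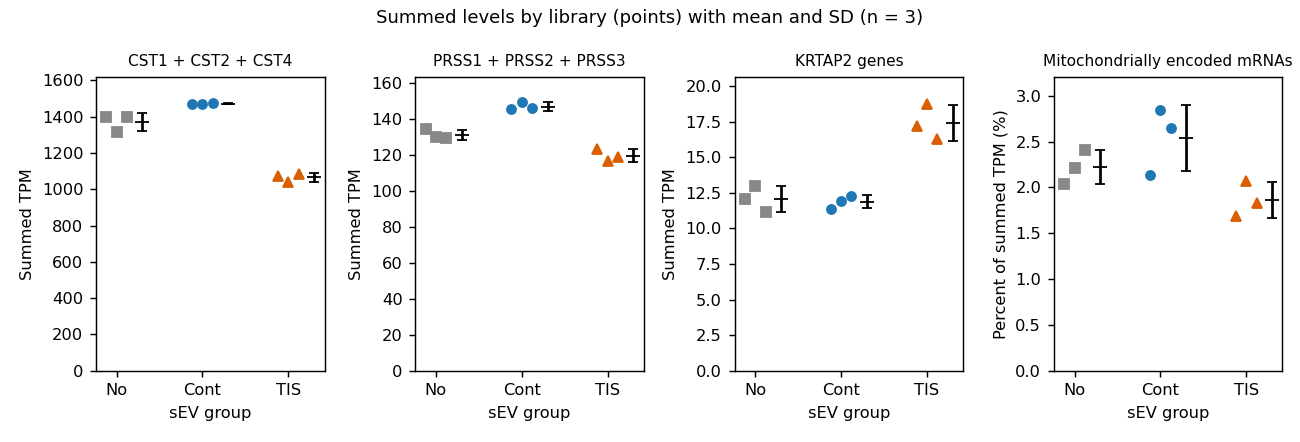
Summed levels per library for the 3 related cystatin genes, the 3 trypsinogen genes and the KRTAP2 genes (TPM), and the mitochondrially encoded mRNAs (percent of summed TPM), with axes from 0. Points are libraries and bars the mean with SD (n = 3). In each panel the TIS sEV libraries lie to 1 side of the Cont sEV libraries. The gene sums include genes picked for passing in this contrast, and the KRTAP2 sum equals KRTAP2-3 alone.

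CSF1, which encodes the growth factor that sustains macrophages, fell. CSF1 (ENSG00000184371.14, chromosome 1, 109910242 to 109930992, plus strand) had 350.5, 350.3 and 369.9 TPM with Cont sEV and 294, 291 and 301 TPM with TIS sEV, a log2 fold change of -0.27 (SE 0.03, adjusted p = 0.0252). Its No sEV libraries had 347, 325 and 344 TPM, above all TIS sEV libraries and below all Cont sEV libraries. CSF1 passed in 12 of 25 alternative fits. It did not pass when any single TIS sEV or Cont sEV library, or No sEV replicate 3, was left out. The genes of the other two colony-stimulating factors did not pass. CSF2, which encodes GM-CSF, had 356, 362 and 346 TPM with Cont sEV and 397, 392 and 378 with TIS sEV, higher in each TIS sEV library (adjusted p = 0.161). CSF3, which encodes G-CSF, had 109, 115 and 113 TPM and 104, 95.1 and 103 TPM, lower in each TIS sEV library (adjusted p = 0.236). Of 8 colony-stimulating factor and receptor genes 4 passed the filter, 1 with a higher and 3 with a lower mean. The receptor genes CSF1R, CSF2RB and CSF3R were below 1 TPM in all libraries.

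In the list of senescence-associated secretory factors 30 of 35 genes passed the filter. With TIS sEV 19 had a higher and 11 a lower mean, and 0 passed. At an unadjusted p under 0.05 there were 8 higher and 3 lower, against 7.07% and 2.93% of all tested genes. The list's median log2 fold change was 0.01, near the 0.02 over all genes, and it turned negative once mitochondrially encoded genes were dropped, GC and length trends were taken out or libraries were rescaled by median ratios. IL11, an interleukin 6 family cytokine gene, had the smallest p of the list, with 319, 307 and 295 TPM with Cont sEV and 355, 345 and 369 TPM with TIS sEV (adjusted p = 0.0737). CXCL1, a neutrophil chemokine gene, had 609.7, 619.8 and 588 and 665, 687 and 678 TPM (adjusted p = 0.127). In both, each TIS sEV library was above each Cont sEV library. The interleukin gene IL6 (173 to 176 TPM with Cont sEV, 166 to 186 with TIS sEV) and the chemokine gene CXCL8 (1463 to 1548 and 1430.4 to 1556) overlapped between the groups.

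F3 and ANKRD1, of clotting and of the response to mechanical tension, rose. F3 encodes tissue factor, the membrane protein that starts the extrinsic clotting pathway. F3 (ENSG00000117525.14, chromosome 1, 94529225 to 94541800, minus strand) had 291, 299 and 297 TPM with Cont sEV and 346, 359 and 338 TPM with TIS sEV. No sEV libraries, at 299.997, 297 and 309 TPM, overlapped the Cont sEV libraries, and all 3 TIS sEV libraries were above both. The log2 fold change of F3 was 0.23 (SE 0.03, 95% interval 0.17 to 0.30, adjusted p = 0.0252). ANKRD1 encodes an ankyrin-repeat protein induced by stretch and by the YAP and TAZ coactivators, of which F3 is also a known target. ANKRD1 (ENSG00000148677.7, chromosome 10, 90912096 to 90921276, minus strand) had 625, 631 and 609 TPM with Cont sEV, 699, 714 and 706 TPM with TIS sEV and 647, 678 and 665 TPM with No sEV. The 3 groups of ANKRD1 values did not overlap, and the log2 fold change was 0.18 (SE 0.02, adjusted p = 0.0343), the smallest among genes that passed. Neither F3 nor ANKRD1 passed without Cont sEV replicate 1, 2 or 3, without TIS sEV replicate 1 or 2 or without No sEV replicate 3; F3 also did not pass without No sEV replicate 1, nor ANKRD1 without TIS sEV replicate 3, after median-of-ratios rescaling or after quantile normalization.

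Promoter windows are shown for both genes, and for PRSS2 and KRTAP2-3 as the genes with the largest fall and rise among those that passed. Each is the 250 bases before the start site in RefSeq on GRCh38.p14, where 7 of the 13 genes matched, written along the gene's strand. Capitals mark 3 motifs searched on both strands. GGAATG is the core bound by TEAD factors, the partners of YAP and TAZ, and TATAAA is the TATA box. TGANTCA is a loosened form of the AP-1 site, which has C or G in the middle where any base was allowed here. The F3 window is chr1:94541760-94542009 (minus strand), the ANKRD1 window chr10:90921088-90921337 (minus strand), the PRSS2 window chr7:142770720-142770969 (plus strand, within the span that GENCODE gives the gene) and the KRTAP2-3 window chr17:41060115-41060364 (minus strand).
F3: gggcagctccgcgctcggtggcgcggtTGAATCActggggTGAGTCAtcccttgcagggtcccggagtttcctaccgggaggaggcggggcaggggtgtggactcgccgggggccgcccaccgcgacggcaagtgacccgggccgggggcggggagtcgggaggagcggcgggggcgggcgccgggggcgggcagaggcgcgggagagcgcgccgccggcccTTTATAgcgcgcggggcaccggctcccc
ANKRD1: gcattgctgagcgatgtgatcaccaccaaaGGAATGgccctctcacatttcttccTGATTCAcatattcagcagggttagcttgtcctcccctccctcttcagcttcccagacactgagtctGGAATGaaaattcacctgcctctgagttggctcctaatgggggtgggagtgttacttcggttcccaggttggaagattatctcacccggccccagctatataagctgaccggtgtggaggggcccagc
PRSS2: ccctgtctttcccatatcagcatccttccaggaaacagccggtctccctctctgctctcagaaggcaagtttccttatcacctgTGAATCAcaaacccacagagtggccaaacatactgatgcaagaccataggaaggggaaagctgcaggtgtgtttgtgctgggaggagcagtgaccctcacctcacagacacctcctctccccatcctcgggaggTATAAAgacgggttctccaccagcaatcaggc
KRTAP2-3: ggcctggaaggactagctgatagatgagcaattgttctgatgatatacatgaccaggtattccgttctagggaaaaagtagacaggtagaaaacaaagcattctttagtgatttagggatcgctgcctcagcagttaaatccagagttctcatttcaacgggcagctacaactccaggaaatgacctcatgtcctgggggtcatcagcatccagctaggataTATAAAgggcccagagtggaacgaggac
The F3 window held 2 TGANTCA matches and 1 TATAAA match, the last on the opposite strand. ANKRD1 had 2 GGAATG matches and 1 TGANTCA match, PRSS2 1 TGANTCA and 1 TATAAA match, and KRTAP2-3 1 TATAAA match. Among the matched genes not shown, CCDC124 had 1 GGAATG match, and the windows of MARCKSL1 and PAWR held none of the motifs. TGAGTCA in F3 was the only TGANTCA match shown with C or G in the middle. Of 35116 RefSeq windows of this length, 11.9% hold GGAATG, 6.57% TGANTCA with any middle base and 10.7% TATAAA. A match describes the letters and does not show that a factor binds there.

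In the list of coagulation and plasminogen activation genes all 15 passed the filter, 12 had a higher mean with TIS sEV and 3 a lower one, with a median log2 fold change of 0.06. F3 was the gene of this list that passed. An unadjusted p under 0.05 was found for 6 genes, all higher, where 7.07% of all tested genes were higher at that p. PLAT, which encodes tissue plasminogen activator, had 801, 811 and 797 TPM with Cont sEV and 908, 897 and 915 TPM with TIS sEV (adjusted p = 0.0779). Every TIS sEV library of PLAT was above all Cont sEV libraries. The urokinase gene PLAU, at 226 to 229 and 227 to 231 TPM, and its receptor gene PLAUR, at 169.6 to 171 and 162 to 175 TPM, overlapped.

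Of 24 YAP/TAZ target genes, 17 had a higher and 7 a lower mean, where 59.6% of all tested genes had a higher one. F3 and ANKRD1 passed, as did 0.0937% of all tested genes. At an unadjusted p under 0.05 there were 6 higher and 0 lower, against 7.07% and 2.93% of all tested genes. The median log2 fold change was 0.06, where that of all genes was 0.02. It was positive in all 25 alternative settings, but these reuse the same libraries. The list also includes F3 and ANKRD1, picked for passing in this contrast. CCN1, which encodes a matricellular protein, had 1583, 1569 and 1524 TPM with Cont sEV and 1717, 1788 and 1715 TPM with TIS sEV (adjusted p = 0.101). CCN2, its relative and a standard readout of YAP activity, had 202, 196 and 199 and 207, 205 and 206 TPM (adjusted p = 0.608). Both were higher in each TIS sEV library, by small amounts.

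Immediate early genes, the transcription factors that cells induce first after a stimulus, included the subunits of AP-1. Of 25 looked up, 22 passed the filter, 18 had a higher and 4 a lower mean, 0 passed the test, and the median log2 fold change was 0.10. At an unadjusted p under 0.05 there were 9 higher and 1 lower, against 7.07% and 2.93% of all tested genes. JUN had 98.6, 96.2 and 95.1 TPM with Cont sEV and 108, 114 and 117 TPM with TIS sEV (log2 fold change 0.23, adjusted p = 0.064), the smallest p of all genes that did not pass. JUND had 114, 116 and 113 and 139, 143 and 165 TPM, with TIS sEV replicate 3 the highest (adjusted p = 0.101). FOS, by contrast, had 16.4 to 20.9 TPM with Cont sEV and 14.02 to 17.3 with TIS sEV, a lower mean with overlapping groups.

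The largest relative rise among genes that passed was that of KRTAP2-3, which encodes a keratin-associated protein of hair. KRTAP2-3 (ENSG00000212724.3, chromosome 17, 41059240 to 41060114, minus strand) had 11.4, 11.9 and 12.3 TPM with Cont sEV and 17.2, 18.7 and 16.3 TPM with TIS sEV. Its No sEV libraries, at 12.04, 12.98 and 11.2 TPM, overlapped the Cont sEV libraries. The log2 fold change of KRTAP2-3 was 0.51 (SE 0.07, 95% interval 0.36 to 0.67, adjusted p = 0.0343). KRTAP2-3 passed in 10 of 25 alternative fits. Of those that left out a single library, it passed only in that without No sEV replicate 2. The related genes KRTAP2-4 and KRTAP2-1 were listed at 0 in all libraries. In the keratin list 11 of 17 genes passed the filter, 10 with a higher and 1 with a lower mean, with a median of 0.07. KRT81, a hair keratin gene, had 32.3, 32.5 and 31.05 TPM and 37.1, 34.4 and 34.6 TPM (adjusted p = 0.301), and KRT18, a simple epithelial keratin gene, had 406, 413 and 406 and 424, 428 and 431 TPM (adjusted p = 0.405).

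MARCKSL1 encodes a membrane-bound protein that binds actin and calmodulin. MARCKSL1 (ENSG00000175130.7, chromosome 1, 32333832 to 32336379, minus strand) had 87.4, 87.6 and 87.8 TPM with Cont sEV, within less than 1 TPM of each other, and 75.99, 69.7 and 73.1 TPM with TIS sEV. The No sEV libraries, at 80.4, 79.4 and 77.6 TPM, lay between, and the log2 fold change was -0.26 (SE 0.04, adjusted p = 0.0343). MARCKSL1 passed in 9 of 25 alternative fits and did not pass when any single library was left out. Its relative MARCKS had overlapping values of 41.6 to 44.2 and 43.3 to 46.02 TPM. Of 33 genes in the list of MARCKS proteins, actin cytoskeleton and migration, 29 had a higher and 4 a lower mean, MARCKSL1 being among the 4, and the median was 0.04. TPM1, a tropomyosin gene, had 133 to 139.9 TPM with Cont sEV and 144 to 153 with TIS sEV (adjusted p = 0.248).

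NOG encodes noggin, a secreted protein that binds bone morphogenetic proteins (BMPs) and keeps them from their receptors. NOG (ENSG00000183691.6, chromosome 17, 56593699 to 56595590, plus strand) had 62.5, 56.9 and 59.4 TPM with Cont sEV and 72.3, 71.6 and 73.9 TPM with TIS sEV, with a log2 fold change of 0.28 (SE 0.04, adjusted p = 0.0343). The No sEV libraries, at 60.8, 62.001 and 60.1 TPM, overlapped the Cont sEV libraries, and all TIS sEV libraries were above both. NOG passed in 10 of 25 alternative fits. Of those that left out a single library, it passed only in that without Cont sEV replicate 1. FST, which encodes the activin-binding protein follistatin, had 81.4, 80.7 and 83.7 and 92.4, 91.6 and 87.5 TPM (adjusted p = 0.214). The ligand gene BMP4 had 56.5 to 59.04 TPM with Cont sEV and 47.7 to 59.4 with TIS sEV. ID1, a direct target of BMP signalling, had 7.38 to 8.89 and 7.64 to 9.64 TPM, and the groups of both genes overlapped. In the BMP and TGF-beta list 22 of 26 genes passed the filter, 11 with a higher and 11 with a lower mean, and NOG alone passed the test.

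PAWR encodes PAR-4, a protein that promotes apoptosis of tumour cells. PAWR (ENSG00000177425.11, chromosome 12, 79574979 to 79691097, minus strand) had 84.995, 79.7 and 78.6 TPM with Cont sEV and 99.7, 100.3 and 99.6 TPM with TIS sEV, a spread of less than 1 TPM among the latter. No sEV libraries had 91.8, 85.5 and 83.6 TPM, and the log2 fold change was 0.30 (SE 0.04, adjusted p = 0.0387), the largest adjusted p among genes that passed. PAWR passed in 8 of 25 alternative fits. Of those that left out a single library, it passed only without No sEV replicate 1 or without Cont sEV replicate 1. Of 27 apoptosis regulators, 19 had a higher and 8 a lower mean, with a median of 0.04. The BCL2 family genes BAD, at 114 to 117 and 122 to 131 TPM (adjusted p = 0.35), and BAK1, at 66.99 to 70.7 and 72.1 to 74.7 TPM (adjusted p = 0.372), followed by p and did not pass.

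CCDC124 encodes a protein that binds ribosomes. CCDC124 (ENSG00000007080.11, chromosome 19, 17933016 to 17943991, plus strand) had 206, 208 and 198 TPM with Cont sEV and 239, 236 and 238 TPM with TIS sEV, with a log2 fold change of 0.22 (SE 0.03, adjusted p = 0.0252). The No sEV libraries, at 227, 222 and 219.99 TPM, lay between the groups. CCDC124 passed in 11 of 25 alternative fits. It did not pass when any single TIS sEV or Cont sEV library, or No sEV replicate 3, was left out. SLCO4A1 encodes an organic anion transporter of the plasma membrane. SLCO4A1 (ENSG00000101187.16, chromosome 20, 62642445 to 62685785, plus strand) had 106, 101 and 102 TPM with Cont sEV, 81.4, 82.4 and 86.3 TPM with TIS sEV and 90.4, 94.3 and 92.6 TPM with No sEV, again with no overlap among the 3 groups (log2 fold change -0.30, SE 0.03, adjusted p = 0.0227). SLCO4A1 passed in 13 of 25 alternative fits. It did not pass without any single Cont sEV library, without TIS sEV replicate 1 or 2 or without No sEV replicate 3. Of 12 tested organic anion and amino acid transporter genes, 4 had a higher and 8 a lower mean, with a median of -0.05, and SLC38A2, a neutral amino acid transporter gene, had 519 to 551 TPM with Cont sEV against 489 to 499.9 with TIS sEV (adjusted p = 0.232).

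NDRG1 encodes a cytoplasmic protein induced by hypoxia and iron depletion. NDRG1 (ENSG00000104419.17, chromosome 8, 133237171 to 133302022, minus strand) had 336, 326 and 352 TPM with Cont sEV and 271, 249.6 and 269 TPM with TIS sEV. Its No sEV libraries, at 286, 259.96 and 288 TPM, overlapped the TIS sEV libraries, the only gene of the 13 for which they did. The log2 fold change of NDRG1 was -0.36 (SE 0.05, adjusted p = 0.0343) between TIS sEV and Cont sEV. Against No sEV it was 0.28 in Cont sEV (adjusted p = 0.448) and -0.08 in TIS sEV (adjusted p = 0.715), from comparisons that share the No sEV libraries. Between TIS sEV and Cont sEV, NDRG1 passed in 11 of 25 alternative fits. Of those that left out a single library, it passed only in that without No sEV replicate 2. Of 37 tested glycolysis and hypoxia genes, 10 had a higher and 27 a lower mean, with a median of -0.03. At an unadjusted p under 0.05 there were 1 higher and 6 lower, against 7.07% and 2.93% of all tested genes. The higher one was SLC2A1, with overlapping values of 319 to 346 TPM with Cont sEV and 338 to 369 with TIS sEV. VEGFA overlapped as well, at 350 to 390 and 346 to 411 TPM. EGLN3, which encodes an oxygen-sensing prolyl hydroxylase, had 7.54, 7.51 and 6.46 TPM with Cont sEV and 5.902, 4.47 and 4.42 with TIS sEV (adjusted p = 0.224), and P4HA1, a collagen prolyl hydroxylase gene, had 76.97 to 78.8 and 71.3 to 72.6 TPM (adjusted p = 0.231).

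Cells without vesicles place these differences. In all 13 genes the No sEV mean lay between the Cont sEV and TIS sEV means, as it did for 36.4% of all tested genes; because the 13 were chosen for the distance between those ends, nothing is read from this. For F3, NOG, KRTAP2-3 and PAWR the No sEV libraries overlapped the Cont sEV libraries, for NDRG1 the TIS sEV libraries, and for the other 8 neither. The same choice of genes affects these counts, and the matching shares of all tested genes were not taken, so nothing is read from them either. Against the same No sEV libraries, CST1 had a log2 fold change of -0.38 with TIS sEV (adjusted p = 0.00175) and 0.09 with Cont sEV (adjusted p = 0.789). KRTAP2-3 had 0.49 with TIS sEV (adjusted p = 0.13) and -0.02 with Cont sEV (adjusted p = 0.984). As the RNA is from whole cultures, a lower level in each cell and fewer cells expressing a gene cannot be told apart.

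The next 20 genes by p whose mean reached 5 TPM did not pass. Besides JUN, JUND, CST2, IL11, PLAT and CCN1 they held further secreted or signalling genes. KISS1, which encodes the precursor of kisspeptin and is known as a metastasis suppressor, had 345, 339 and 319 TPM with Cont sEV, 390.3, 373 and 402 TPM with TIS sEV and 418, 413 and 411 TPM with No sEV, the highest values being those of cells without vesicles (TIS sEV against Cont sEV, adjusted p = 0.0782). PTGS2, the inducible prostaglandin synthase gene, had 162, 157 and 165 and 142, 145 and 141 TPM (adjusted p = 0.0894). IL24, an interleukin 10 family gene, had 377 to 397 TPM with Cont sEV and 420.3 to 434 with TIS sEV. UBE2C, the ubiquitin-conjugating enzyme gene of the anaphase-promoting complex, had 219, 219 and 222 TPM against 245, 245 and 245 TPM (adjusted p = 0.0779).

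Lower TIS sEV values in this range were those of SOX4, a transcription factor gene (15.6 to 16.6 TPM with Cont sEV, 12.7 to 13.1 with TIS sEV), ENPP1, an ecto-nucleotide pyrophosphatase gene (29.1 to 32.6 and 24.7 to 25.6), and DEPP1 (15.6 to 16.7 and 12.1 to 13.1). Higher ones were those of DDX54, an RNA helicase gene (77.5 to 85.7 and 94.7 to 99.4 TPM), G0S2, which encodes an inhibitor of fat breakdown (752 to 779 and 822 to 876), TRIM3 (8.82 to 9.6997 and 11.7 to 12.5) and SCAND1 (51.8 to 53.2 and 59.8 to 63.9). Entries of low level were TRBV12-4, a T-cell receptor segment (4.63 to 4.98 and 6.37 to 7.78 TPM), and ENSG00000250264, which has no symbol (5.41 to 6.83 and 10.04 to 11.7 TPM). The remaining gene of the 20 was MT-ND3, which is mitochondrially encoded and was lower with TIS sEV. In each of the 20 the groups did not overlap, which selection by small p favours. Of the 20, 8 passed under some alternative: CST2, ENPP1 and PTGS2 after median-of-ratios rescaling, quantile normalization or removal of GC and length trends, DEPP1 after the first pair of these, JUN and DDX54 with a filter of 5 TPM, PLAT without No sEV replicate 2 and MT-ND3 without Cont sEV replicate 1.

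**Figure D3:**
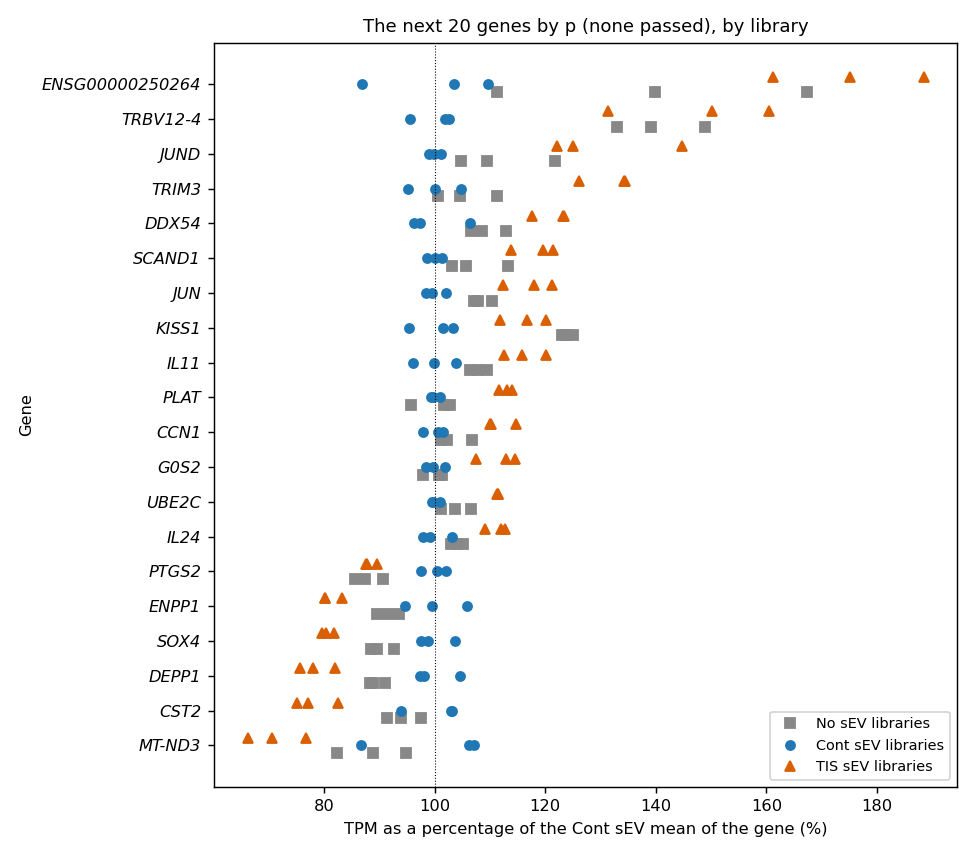
Level of the next 20 genes by p, none of which passed, by library, as a percentage of the gene's Cont sEV mean. Triangles are TIS sEV, circles Cont sEV and squares No sEV libraries; KISS1 is the gene whose No sEV libraries lie above both other groups.

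Large fold changes were found among genes that did not pass. Among genes whose mean reached 5 TPM and whose groups did not overlap, the highest was ENSG00000285238, with 0.0487, 6.94 and 5.199 TPM with Cont sEV and 13.7, 8.81 and 11.9 TPM with TIS sEV (log2 fold change 1.72, SE 0.64, adjusted p = 0.411). ENSG00000285723, a short record that shares the symbol MKKS with a longer gene around it, had 23.9, 38.3 and 23.2 TPM against 50.9, 63.9 and 46.9 TPM (log2 fold change 0.92, SE 0.21, adjusted p = 0.214). The lowest was the spliceosomal RNA gene RNU6ATAC, with 14.97, 18.9 and 24.7 and 2.82, 10.6 and 13.6 TPM (log2 fold change -1.22, SE 0.56, adjusted p = 0.516). The standard errors of these genes were well above those of the genes that passed, which ran from 0.02 to 0.07. The readthrough gene HSPE1-MOB4 (4.41 to 10.2 and 11.2 to 15.97 TPM), ENSG00000259132 (0 to 3.21 and 4.002 to 7.04) and ENSG00000273184 (9.61 to 10.8 and 2.25 to 7.68) had standard errors of 0.27, 0.45 and 0.31.

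**Figure D4:**
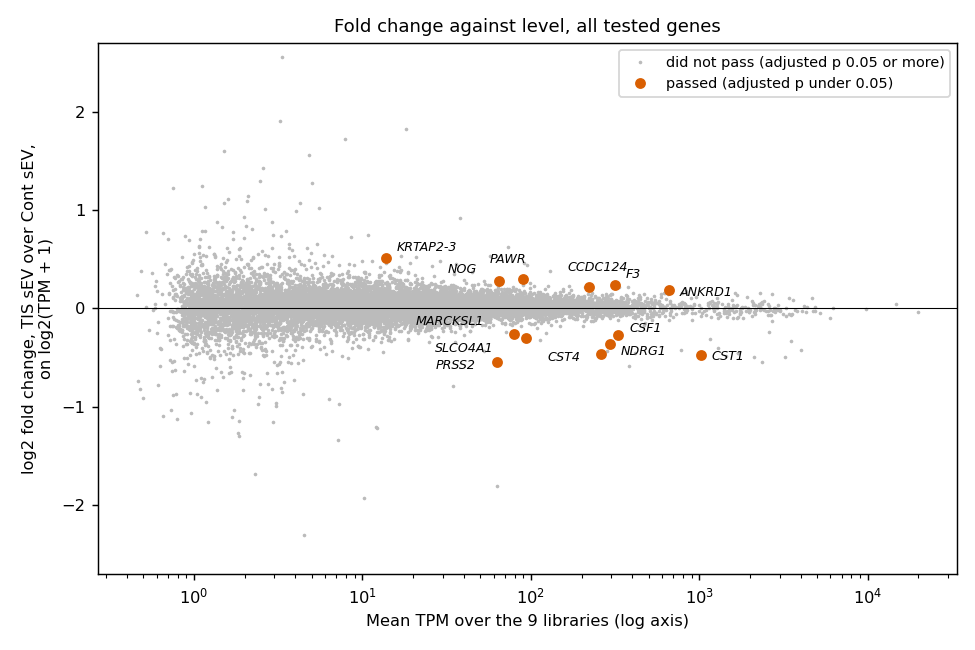
Log2 fold change of TIS sEV over Cont sEV, on log2(TPM + 1), against mean TPM over the 9 libraries (log axis) for the 13879 tested genes. Orange points are the 13 that passed, between 0.18 and 0.54 from 0 and mostly at high levels; the large fold changes belong mainly to genes of low level.

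The precision was enough to bound most genes on log2(TPM + 1), a scale that understates the changes of low genes. The 95% interval of the log2 fold change extended 0.16 to each side at the median gene and 0.13 for the 10483 genes whose mean reached 5 TPM. It lay within a 1.2-fold change in either direction for 58.1% of genes, within 1.5-fold for 91.6% and within 2-fold for 97.9%. For the 1625 genes with a mean under 2 TPM the median half-width was 0.37, and for the 607 with at least 250 TPM it was 0.07.

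The 13 mRNAs of the mitochondrial genome, which encode subunits of the respiratory chain and ATP synthase, all had a lower mean with TIS sEV. In limma 0 passed and 11 had an unadjusted p under 0.05, where 2.93% of all tested genes were lower at that p. The median log2 fold change of the 13 was -0.45. The groups did not overlap for 15.4% of all tested genes and for 9 of the 13. As a share of summed TPM they made up 2.14, 2.84 and 2.65% with Cont sEV, 1.69, 2.07 and 1.83% with TIS sEV and 2.04, 2.21 and 2.41% with No sEV. Cont sEV replicate 1 and TIS sEV replicate 2 nearly met, and the No sEV libraries overlapped both groups (TIS sEV against Cont sEV, two-sided exact permutation p = 0.1, again the least that this design can give). MT-CYB, the cytochrome b gene, had the largest log2 fold change of the list, with 370.2, 515 and 477 TPM and 269, 326 and 303 TPM (adjusted p = 0.127). MT-ND3, a complex I subunit gene, had 1439.7, 1767 and 1781 and 1172, 1275 and 1100.04 TPM (adjusted p = 0.0961), and MT-CO3, a cytochrome c oxidase subunit gene, had 2319, 3069 and 2949 and 1754, 2052 and 1888 TPM (adjusted p = 0.128). MT-ND6, at 69.3 to 87.9 and 48.96 to 87.2 TPM, overlapped. With Cont sEV replicate 1 left out 10 genes passed, MT-ND3, MT-ATP6, MT-CYB and MT-CO3 among them. This share also moves with RNA quality and handling, whose part in the difference was not tested.

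Cell-cycle lists held no gene that passed in limma, while 9 G1/S and 7 G2/M genes, all higher, had an unadjusted p under 0.05. Among all tested genes 7.07% were higher and 2.93% lower at that p. In G1/S and DNA replication 36 of 42 genes had a higher mean with TIS sEV, with a median of 0.08, and 29 did after median-of-ratios rescaling or quantile normalization. PCNA, the replication clamp gene, had 169, 168 and 163 TPM with Cont sEV and 179.6, 175 and 183 with TIS sEV (adjusted p = 0.234). In G2/M and mitosis 31 of 37 means were higher (median 0.05), and 27 and 25 were after those rescalings. CDC25C, a phosphatase gene of mitotic entry, had 16.2, 15.5 and 14.7 and 18.3, 19.3 and 18.5 TPM (adjusted p = 0.173). Of 18 tested senescence and arrest regulators, 15 had a higher mean with TIS sEV (median 0.05), 0 passed and 6 had an unadjusted p under 0.05. CDKN1A, which encodes p21, had overlapping values of 113 to 119.9 TPM with Cont sEV and 115 to 118 with TIS sEV, and CDKN2A, which encodes p16, was listed at 0 in all 6 libraries. LMNB1, a lamin gene known to fall in senescent cells, had 51.1, 50.995 and 51.2 and 56.2, 53.7 and 54.7 TPM (adjusted p = 0.463).

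The remaining 8 lists had 0 genes that passed in limma and medians close to that over all genes. At an unadjusted p under 0.05 they held at most 3 higher genes each and at most 2 lower, except for 7 lower matrix and mesenchymal genes. The shares over all tested genes were 7.07% higher and 2.93% lower. In tubulins and microtubule regulators, the targets of the donors' drug, 13 of 22 genes had a higher mean (median 0.02), with TUBB6 at 232 to 246 TPM with Cont sEV and 255 to 259 with TIS sEV and TUBA1A at 218 to 219.9 and 197 to 209. Vesicle release and uptake had 17 of 29 genes higher (0.01). The smallest p of that list was that of VAMP7, lower with TIS sEV (34.3 to 43.7 TPM with Cont sEV, 29.7 to 30.8 with TIS sEV). The clathrin gene CLTC was next, at 193 to 206 and 214 to 216 TPM. The interferon response had 22 of 34 higher (0.02), with ISG15 at 279 to 289 and 309 to 327 TPM, the unfolded protein and integrated stress response 16 of 24 (0.02), with CEBPB at 55.6 to 63.2 and 64.2 to 68.5, and heat shock chaperones 11 of 17 (0.03), with HSPA8 at 1729 to 1750.1 and 1626 to 1653. Matrix and mesenchymal genes had 16 of 30 higher (0.01), with the fibronectin gene FN1 at 124 to 146 TPM and 108 to 122 TPM, and sterol and fatty acid synthesis 10 of 27 (-0.01), with MVD at 54.5 to 57.3 and 61.3 to 62.6. Among 12 reference genes 7 had a higher mean, TBP had 26.6, 26.1 and 26.7 TPM with Cont sEV and 23.5, 23.5 and 21.1 with TIS sEV (adjusted p = 0.21), and GAPDH had 3323 to 3407 and 3065 to 3288, a difference whose sign turned after quantile normalization. The medians of the tubulin, vesicle, interferon, matrix and reference lists turned negative after median-of-ratios rescaling.

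**Figure D5:**
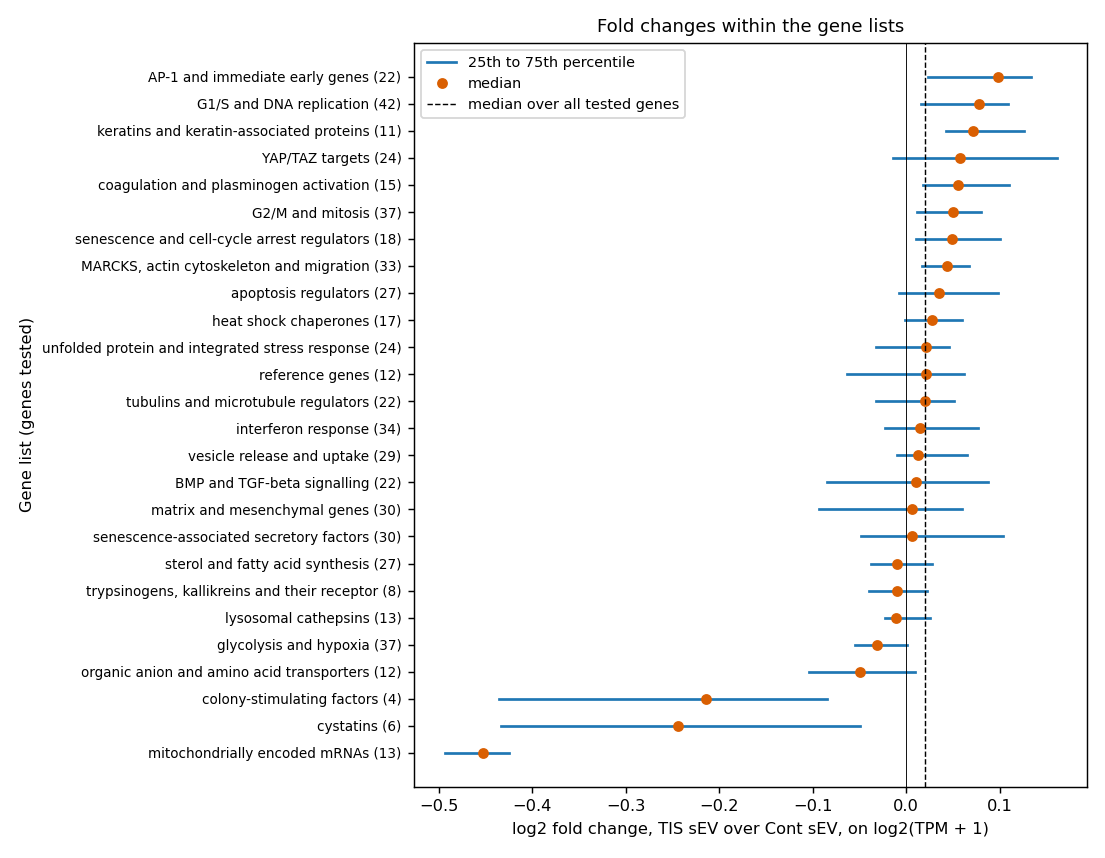
Median log2 fold change (points) and 25th to 75th percentile (bars) of TIS sEV over Cont sEV for each of 26 gene lists, with the number of tested genes in brackets and the median over all tested genes, 0.02, as a dashed line. Mitochondrially encoded mRNAs (-0.45) and cystatins (-0.24) lie lowest and immediate early genes (0.10) highest.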

How the data were processed

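The authors deposited 1 table of TPM for 60719 Ensembl genes, all 9 columns of which were used. Salmon 1.4.0 and DESeq2 1.28.0, Trim Galore 0.6.6, FastQC 0.11.9 and GRCh38.p13 are named in the submitters' processing notes; the sources used here name no annotation release. Names were matched by Ensembl ID (99.9%), coordinates taken from GENCODE 29, and groups from the labels. limma 3.58.1 in R 4.3.3 fitted log2(TPM + 1) of all 9 libraries with a variance trend, two-sided, with Benjamini-Hochberg adjustment over 13879 genes at 0.05. Of these steps, the limma fit was tested on simulated data with independent noise. Those data held no differences between whole libraries, so the simulation cannot show how the fit behaves with outlying libraries. The comparison, its gene lists and the named genes were chosen with earlier results of these data known. Named were all genes that passed, the next 20 by p with a mean of at least 5 TPM, up to 5 per direction by fold change, up to 3 of smallest p per list, and relatives of genes that passed. Other list members (IL6, CXCL8, CDKN1A, CDKN2A, LMNB1, CCN2, FOS, PLAU, PLAUR, BMP4, ID1, F2RL1, SLC2A1, VEGFA and receptors) were added after their values were seen. Some items are not reported here. Alternatives were other pseudocounts, filters, scalings, variance priors and library sets. Figures were drawn with matplotlib 3.10.9.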

Additional observations from a re-analysis of the deposited data

How the results depend on the processing

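In 25 alternative fits no gene of the 13 changed sign. CST1 and PRSS2 passed in 24 of them, all but the test against a minimum fold of 1.2, where 0 genes passed in limma and 66 had an unadjusted p under 0.05; CST4 passed in 19 and each of the other 10 genes in 8 to 13. A constant prior variance left 2 calls and the 6 libraries compared, fitted alone, left 3, all of them lower. Leaving out 1 library at a time gave 2 to 13. Calls were 3 higher and 11 lower after median-of-ratios rescaling, 6 and 11 after quantile normalization, and 6 and 10 with GC and length trends removed. Without a filter on low values 13 genes passed, 5 of them shared. The median over all genes was 0.000732, 0 and 0.00138 under those 3 rescalings. Pairs of libraries left out after seeing the data gave 4 calls, with a median of 0.0342 (TIS sEV replicate 3 with Cont sEV replicate 1, the latter picked with results in view) and 3 calls, with a median of -8.2e-05 (TIS sEV replicate 2 with Cont sEV replicate 2, the libraries of lowest weight). GAPDH reversed from -0.07 to 0.00829 after quantile normalization.

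Over all genes no pairing by replicate number was seen. Deviations of same-numbered TIS sEV and Cont sEV libraries correlated at -0.0479, -0.042 and 0.0217, and 0 of 6 libraries correlated best with its own number. The mitochondrially encoded mRNA share, however, was lowest in replicate 1 and highest in replicate 2 in both groups. With No sEV replicate 1 was also lowest (2.04%), and replicate 3 was highest (2.41%). The labels do not say what a replicate number marks. With the number as a replicate block 9 genes passed, all lower, 5 of them shared with the 13 and 4 mitochondrially encoded.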
